A study of Mus musculus with 12 samples.

Results

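The comparison described here sets livers of mice given a high fat diet with N-acetylcysteine against livers of mice given the high fat diet alone. It uses 8 of the 12 libraries of the series, 4 in each group, which were chosen by their labels and not by any measured value. All animals were C57BL/6 mice, and total RNA was taken from whole liver. The HFD group received the high fat diet, and the NAC_HFD group received the same diet with N-acetylcysteine given daily in the drinking water at 2 g per litre. The remaining 4 libraries, from mice on a normal fat diet without N-acetylcysteine (NFD), are shown as background. All groups were fed for 14 weeks. The age label reads 8 weeks, and whether that means the start or the end of feeding is not stated. The groups number their replicates 1 to 4, but nothing in the labels says whether each came from a separate animal, so p-values measure the spread between these samples only, which may in part be technical.

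N-acetylcysteine is a cell-permeable source of cysteine, the amino acid that limits the synthesis of glutathione, and a thiol that can itself reduce disulphide bonds. The liver makes most of the body's glutathione and also folds and secretes most plasma proteins, whose disulphide bonds form in the oxidising interior of the endoplasmic reticulum. When unfolded protein collects there, the sensors ATF6, IRE1 and PERK switch on the unfolded protein response, in which ATF6 and the spliced form of XBP1 drive genes for chaperones, disulphide isomerases and the degradation of misfolded protein. Oxidative stress acts through another factor, NRF2, on enzymes of glutathione and thioredoxin metabolism.

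Values are TPM, the share of a library's transcripts that came from a gene, corrected for its length and scaled to a fixed total. TPM keeps no read depth, so the depth of each library is unknown and a 0 is reported only as listed at 0. Of 19252 genes in the gene table, 11376 reached 1 TPM in at least 4 of the 12 libraries and were tested with limma on log2(TPM + 1). A log2 difference below is the NAC_HFD mean minus the HFD mean on that scale with its standard error, and the added 1 makes it smaller than the ratio of TPM for genes near or below 1 TPM. No gene passed an adjusted p of 0.05 (0.0% of tested genes in either direction). The smallest adjusted p was 0.0515, and 202 genes had one under 0.1. At an unadjusted p under 0.05, 1584 genes (13.9%) were lower and 286 (2.51%) were higher with N-acetylcysteine. The libraries of the 2 groups did not overlap for 985 genes (8.66%) that were lower and 177 genes (1.56%) that were higher. The median log2 difference of all tested genes was -0.08, with 7789 genes below 0 and 3587 above. The split of higher and lower genes depended on the scaling of the libraries. After median-of-ratios scaling, which sets the typical gene equal across libraries, the median was 0.00, with 862 genes lower and 829 higher at an unadjusted p under 0.05 (7.58% and 7.29%) and 554 lower and 592 higher without overlap (4.87% and 5.2%). Quantile normalization gave 762 lower and 871 higher genes at that p (6.7% and 7.66%) and 488 lower and 605 higher without overlap (4.29% and 5.32%). No gene passed the adjusted threshold on the median-of-ratios scale either, and the smallest adjusted p was 0.058. Of the 985 genes lower without overlap as deposited, 546 (55.4%) were so after rescaling, against 174 of the 177 higher genes (98.3%). The count of genes past the threshold was 23 without HFD 3, 64 without NAC_HFD 1, 2 without NAC_HFD 2 and 3 without NAC_HFD 3, and 0 without any other single library.

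Some values that describe whole libraries differed between the groups. Genes reaching 1 TPM numbered 11098 to 11316 per HFD library and 10864 to 11071 per NAC_HFD library (exact two-sided permutation p = 0.0286, the smallest that 4 against 4 libraries can give). After median-of-ratios scaling these numbers overlapped, at 11131 to 11154 and 10933 to 11141 (exact permutation p = 0.0857). Libraries correlated with those of their own group at means of 0.987 to 0.989 in HFD and 0.979 to 0.983 in NAC_HFD (across genes on the log2 scale). The NAC_HFD libraries were thus more scattered than the HFD ones, but not than NFD, where the group mean was 0.982 against 0.981 in NAC_HFD. These values share pairs of libraries within a group, so no p is given for them. Transcripts of the lncRNA gene Gm37350 summed to 3033 to 3941 TPM in HFD, 3430 TPM in NAC_HFD 1 and 6094 to 10596 TPM in NAC_HFD 2, 3 and 4 (exact permutation p = 0.0571). Those of Gm42418 summed to 2300 to 2581 TPM in HFD and to 2427, 4215, 3784 and 5173 TPM in NAC_HFD 1 to 4 (exact permutation p = 0.0857). The part of these library differences in the gene results was not tested. The hepatocyte identity of the tissue was plain in every library, with albumin (Alb) at 22101 TPM or more.

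**Figure D1:**
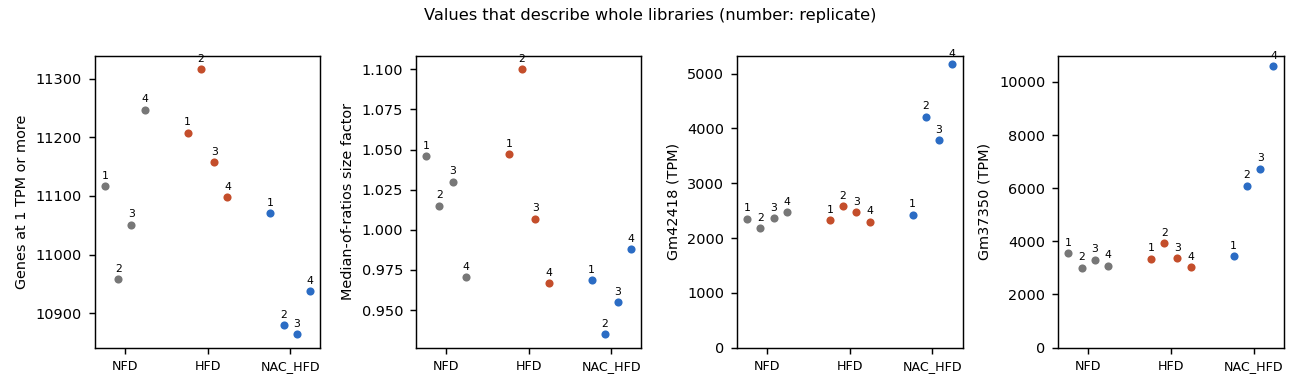
Values that describe each of the 12 libraries: genes reaching 1 TPM, median-of-ratios size factor, and summed TPM of the lncRNA genes Gm42418 and Gm37350, with groups on the x axis and each point numbered by replicate. The NAC_HFD libraries reach 10864 to 11071 genes against 11098 to 11316 in HFD, and NAC_HFD 2, 3 and 4 are high for both lncRNA genes.

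Genes of endoplasmic reticulum protein folding were lower as a group in the NAC_HFD livers, by a median log2 difference of -0.51 against -0.08 for all tested genes. All 24 listed genes were tested, 22 lay below 0, and for 15 of them every NAC_HFD library lay below every HFD library, where 8.66% of all tested genes did so. The unadjusted p was under 0.05 for 15 genes, all lower, where 13.9% of all tested genes were lower at that p. That count was 14 to 15 when any single HFD or NAC_HFD library was left out. After median-of-ratios scaling the median was -0.42, with 15 genes lower without overlap and 14 at that p (4.87% and 7.58% of all tested genes). As deposited the median ran from -0.55 to -0.46 when single libraries were left out. No gene of the list passed the adjusted threshold. In bulk tissue, fewer cells of a type and less RNA per cell cannot be told apart.

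Several of these genes carry in their promoters the endoplasmic reticulum stress response element, the DNA site through which ATF6 and XBP1 act on chaperone genes. The element was searched as CCAAT and CCACG with any 9 bases between them, on both strands, from 250 bases before to 50 after the start of each gene, in the RefSeq promoter table of build GRCm38.p6. It occurred in 39 of 32851 such windows (0.119%) and in 8 of the 21 listed genes that matched a window. These 8 genes held 9 matches. Capitals mark the fixed bases of the element, and each match is written 5′ to 3′ in the direction of the element.
Calr, chr8:84847075-84847093, strand opposite to the gene, most upstream base 162 bases before the gene start: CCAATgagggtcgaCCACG
Canx, chr11:50325800-50325818, same strand as the gene, most upstream base 145 bases before the gene start: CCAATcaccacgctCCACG
Creld2, chr15:88819520-88819538, strand opposite to the gene, most upstream base 126 bases before the gene start: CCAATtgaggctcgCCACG
Dnajc3, chr14:118937827-118937845, same strand as the gene, most upstream base 105 bases before the gene start: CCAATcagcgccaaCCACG
Hsp90b1, chr10:86705638-86705656, same strand as the gene, most upstream base 212 bases before the gene start: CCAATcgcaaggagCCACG
Hsp90b1, chr10:86705533-86705551, strand opposite to the gene, most upstream base 107 bases before the gene start: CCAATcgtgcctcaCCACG
Hspa5, chr2:34772025-34772043, same strand as the gene, most upstream base 65 bases before the gene start: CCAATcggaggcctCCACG
Pdia6, chr12:17266491-17266509, same strand as the gene, most upstream base 98 bases before the gene start: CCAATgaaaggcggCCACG
Syvn1, chr19:6046532-6046550, same strand as the gene, most upstream base 44 bases before the gene start: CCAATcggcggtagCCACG
Of these 8 genes, 6 were lower in NAC_HFD without overlap (Canx, Creld2, Hsp90b1, Hspa5, Pdia6 and Syvn1), with a median log2 difference of -0.60 over the 8. Of the 13 listed genes with a window and no match, 7 were lower without overlap, with a median of -0.40. A match describes these letters only, and the absence of one says nothing about the factors. The 250 bases before the start of Hspa5 and of Syvn1, 5′ to 3′ on the strand of the gene with the element in capitals, show how close to the start it lies in the genes for the main chaperone and for the main ubiquitin ligase of the compartment.
Hspa5, chr2:34771840-34772089, + strand: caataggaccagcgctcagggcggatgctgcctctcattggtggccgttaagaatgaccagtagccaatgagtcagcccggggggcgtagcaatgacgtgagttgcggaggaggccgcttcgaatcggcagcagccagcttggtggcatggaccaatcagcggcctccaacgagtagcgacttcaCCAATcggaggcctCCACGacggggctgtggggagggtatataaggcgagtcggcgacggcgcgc
Syvn1, chr19:6046326-6046575, + strand: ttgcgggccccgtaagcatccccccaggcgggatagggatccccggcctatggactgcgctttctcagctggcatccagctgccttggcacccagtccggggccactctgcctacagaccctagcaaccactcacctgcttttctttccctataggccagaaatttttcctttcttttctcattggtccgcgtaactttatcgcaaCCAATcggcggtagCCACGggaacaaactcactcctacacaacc

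Gene positions are those of the RefSeq gene table, build GRCm38.p6. Hspa5 (ENSMUSG00000026864, chr2:34772090-34776529) encodes BiP, the main HSP70 chaperone of the endoplasmic reticulum and the standard readout of the unfolded protein response. It stood at 912.0, 940.7, 918.5 and 834.4 TPM in HFD 1 to 4 and at 585.5, 573.1, 449.1 and 496.6 TPM in NAC_HFD 1 to 4. Every treated library lay below every untreated one. The means were 901 ± 46.3 TPM (SD, n = 4) and 526 ± 64.7 TPM (n = 4). The log2 difference was -0.78 (SE 0.18, adjusted p = 0.0731 in limma). The NFD libraries spread from 579.6 to 1133 TPM, across the HFD range and down to the top of the NAC_HFD range. Of the treated libraries only NAC_HFD 1, at 585.5 TPM, lay above the lowest NFD library. Hsp90b1 (ENSMUSG00000020048, chr10:86690841-86705444), which encodes the HSP90 chaperone GRP94, stood at 728.2, 760.5, 732.7 and 650.7 TPM in HFD and at 543.7, 526.1, 426.4 and 449.9 TPM in NAC_HFD. Again the groups did not overlap, with a log2 difference of -0.57 (SE 0.14, adjusted p = 0.0908). Hyou1, the nucleotide exchange chaperone GRP170, ran from 170.1 to 198 TPM in HFD and from 70.4 to 157 TPM in NAC_HFD, a log2 difference of -0.73. Among the J-domain partners of BiP, Dnajb11 was lower without overlap (log2 difference -0.62), while Dnajb9 (-0.49) and Dnajc3 (-0.33) overlapped between the groups.

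The disulphide isomerases, which form and reshuffle disulphide bonds in new secretory proteins, were lower to differing degrees. Pdia4 (ENSMUSG00000025823, chr6:47796141-47813512) stood at 358.0, 383.0, 348.5 and 333.3 TPM in HFD and at 232.4, 224.5, 128.4 and 206.5 TPM in NAC_HFD. NAC_HFD 3 was the lowest library by far, and the other 3 treated libraries also lay below all of HFD (log2 difference -0.88, SE 0.22, adjusted p = 0.0964). Pdia6 (-0.63), Pdia3 (-0.56) and P4hb (-0.40), the last of these the most abundant isomerase of the list at 509.8 ± 32.2 TPM in HFD and 386.5 ± 44.0 TPM in NAC_HFD (n = 4 each), were likewise lower without overlap. The lectin chaperone gene Canx was slightly lower without overlap (-0.23, unadjusted p 0.0692 in limma), and its partner Calr overlapped (-0.36). Small luminal proteins of the response showed some of the widest gaps. Creld2 stood at 146.3, 137.9, 141.7 and 141.7 TPM in HFD and at 96.55, 69.32, 30.27 and 56.52 TPM in NAC_HFD (log2 difference -1.27, SE 0.36, adjusted p = 0.137). Its HFD libraries sat within a narrow band and its NAC_HFD libraries were scattered well below it. Sdf2l1, a stabiliser of chaperone complexes, stood at 52.48, 56.04, 58.17 and 50.15 TPM in HFD and at 33.99, 31.96, 12.02 and 24.38 TPM in NAC_HFD (log2 difference -1.15, SE 0.30, adjusted p = 0.111). Manf, a secreted factor of the same response, ran from 277 to 299 TPM in HFD and from 100.2 to 208 TPM in NAC_HFD (log2 difference -0.83).

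Syvn1 (ENSMUSG00000024807, chr19:6046576-6053718) encodes HRD1, the membrane ubiquitin ligase that marks misfolded proteins for degradation. It stood at 136.7, 121.0, 166.9 and 130.9 TPM in HFD and at 77.14, 78.37, 34.0 and 53.29 TPM in NAC_HFD. The groups were far apart, and all 4 treated libraries also lay below the NFD range of 98.1 to 176 TPM. The log2 difference was -1.25 (SE 0.26, adjusted p = 0.0612). Its cofactor Sel1l was lower without overlap (98.6 to 113 TPM against 77.8 to 91.3 TPM, log2 difference -0.38), as was Selenos, a selenoprotein of the same pathway (-0.26), whereas Herpud1 (-0.29) and the mannosidase-like gene Edem1 (-0.11) overlapped. The RNA of the sensors IRE1 and ATF6 and of XBP1 overlapped between the groups. Ern1, which encodes IRE1, differed by 0.14, Atf6 by -0.14 and Xbp1 by 0.10 on the log2 scale, and none had an unadjusted p under 0.05. Xbp1 was split within the treated group, at 178 and 223 TPM in NAC_HFD 1 and 2 and 86.1 and 109 TPM in NAC_HFD 3 and 4, and its sign changed to -0.03 with library weights. The gene table does not separate the spliced from the unspliced form of Xbp1. The list of ATF4 targets, the branch downstream of PERK, had a median of -0.07 over 21 tested genes, with 3 lower and 1 higher at an unadjusted p under 0.05, near the 13.9% and 2.51% of all tested genes. That count of 3 ran from 1 to 5 when single libraries were left out, and the median was 0.01 after median-of-ratios scaling.

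**Figure D2:**
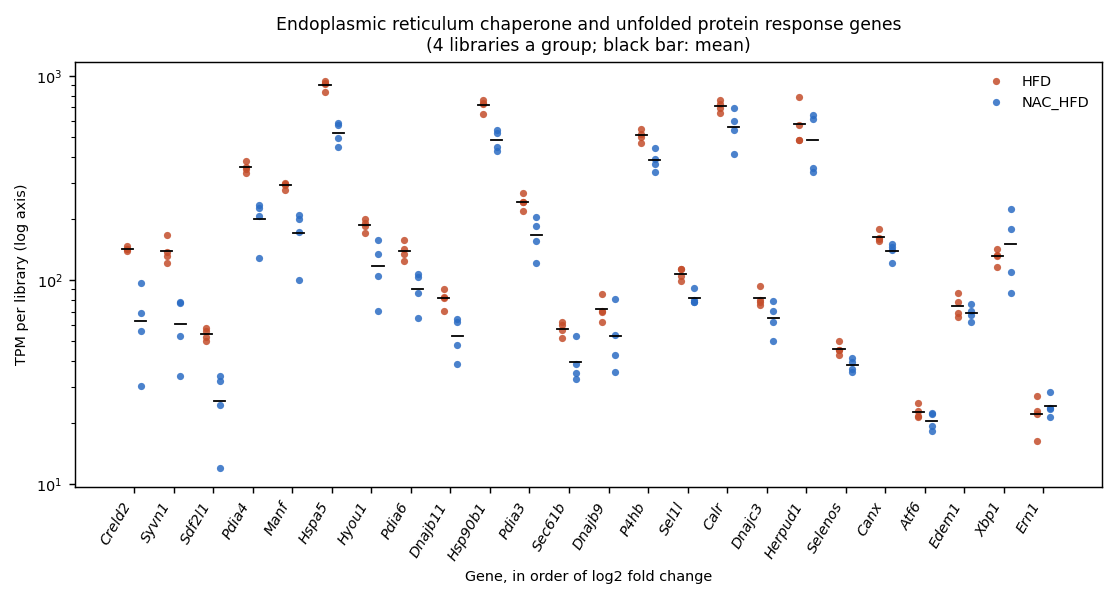
TPM on a log axis of the 24 genes of endoplasmic reticulum folding and the unfolded protein response in the 4 HFD and 4 NAC_HFD libraries, with a black bar at the mean. For Hspa5 the HFD points lie between 834.4 and 940.7 TPM and the NAC_HFD points between 449.1 and 585.5 TPM, and 15 of the 24 genes show such a gap.

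Folding genes outside this compartment were also lower, by less. The cytosolic heat shock list had a median of -0.25 over 21 genes, with 9 lower at an unadjusted p under 0.05 and 5 lower without overlap (13.9% and 8.66% of all tested genes). After median-of-ratios scaling the median was -0.16, with 4 and 3 genes (7.58% and 4.87% of all tested genes), and the count of 9 was 5 without HFD 3, NAC_HFD 3 or NAC_HFD 4 and 13 without NAC_HFD 2. Hspa8, the constitutive cytosolic HSP70, stood at 2002, 1903, 1833 and 1709 TPM in HFD and at 1491, 1591, 990.0 and 1152 TPM in NAC_HFD (log2 difference -0.54, SE 0.16, adjusted p = 0.132). Its 4 treated libraries lay below the untreated and below the NFD range of 1770 to 2682 TPM. The 31 genes of the constitutive proteasome had a median of -0.20 with 30 below 0, or -0.11 with 24 below 0 after median-of-ratios scaling. Of them 8, Psmb5 (-0.35) and Psmd14 (-0.35) included, were lower without overlap (8.66% of all tested genes), against 4 after that scaling (4.87%). At an unadjusted p under 0.05, 6 were lower (13.9%), or 2 after that scaling (7.58%). The count of 6 ran from 2 to 10 when single libraries were left out.

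The list of NRF2 targets had a median log2 difference of -0.36 over 31 tested genes, with 28 below 0, 15 lower at an unadjusted p under 0.05 and 9 lower without overlap (13.9% and 8.66% of all tested genes). That median was -0.26 after median-of-ratios scaling, with 8 and 9 genes (7.58% and 4.87% of all tested genes), and the first count (15 as deposited) was 9 without HFD 2 and 9 without NAC_HFD 2. Aox1 (ENSMUSG00000063558, chr1:58029809-58106410), aldehyde oxidase, stood at 39.72, 49.94, 40 and 38.59 TPM in HFD and at 25.82, 15.45, 28.13 and 23.84 TPM in NAC_HFD. The treated libraries lay below all HFD and all NFD libraries (34.7 to 46.9 TPM), and the log2 difference was -0.85 (SE 0.16, adjusted p = 0.0515). Taldo1, transaldolase of the pentose phosphate pathway, stood at 52.59, 60.82, 52.12 and 54.20 TPM in HFD and at 43.23, 31.06, 36.60 and 37.56 TPM in NAC_HFD (log2 difference -0.56, SE 0.11, adjusted p = 0.0515). The treated level of Taldo1 was near that of NFD (36.1 to 43.4 TPM). Nqo1 (-0.63), Hmox1 (-0.68) and Srxn1 (-0.58), classical NRF2 targets, overlapped between the groups and had unadjusted p values of 0.0038, 0.0361 and 0.0384 in limma.

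Txn1 (ENSMUSG00000028367, chr4:57943373-57956411), cytosolic thioredoxin, stood at 128.8, 136.5, 113.2 and 107.7 TPM in HFD and at 85.37, 80.74, 74.68 and 65.19 TPM in NAC_HFD. No treated library came near the untreated ones (log2 difference -0.66, SE 0.12, adjusted p = 0.0515). The thioredoxin and peroxide list as a whole had a median of -0.14 over 26 genes, against -0.08 for all tested genes. In it 8 were lower at an unadjusted p under 0.05 and 5 without overlap (13.9% and 8.66% of all tested genes). After median-of-ratios scaling these counts were 3 and 3 (7.58% and 4.87%). That count of 8 was 5 without HFD 1 and 3 without HFD 2 or NAC_HFD 2. The reductase gene Txnrd1 differed by -0.26 and the peroxiredoxins Prdx3 and Prdx1 by -0.32 and -0.29. Among glutathione S-transferases, which conjugate glutathione to electrophiles, 17 of 20 lay below 0 with a median of -0.22. Gstm2 stood at 52.2, 52.8, 41.0 and 45.8 TPM in HFD and at 20.2, 19.6, 35.9 and 37.8 TPM in NAC_HFD (log2 difference -0.79, adjusted p = 0.0914), and Gstm4 ran from 19.7 to 26.5 TPM against 9.70 to 18.3 TPM (-0.77, adjusted p = 0.0727). The lowest values of both came from NAC_HFD 1 and 2. Gstm genes are close paralogs, and the rule that divided reads among them is not known from the labels. Mgst1, the abundant microsomal transferase, was 4547 ± 186 TPM in HFD and 3510 ± 312 TPM in NAC_HFD (n = 4 each, log2 difference -0.38).

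The 20 tested genes of glutathione synthesis and recycling had a median of -0.15, with 1 gene lower and 1 higher at an unadjusted p under 0.05 (13.9% and 2.51% of all tested genes). The lower count was 3 without NAC_HFD 1 and 2 without HFD 3, HFD 4 or NAC_HFD 4. The ligase subunit genes Gclc (-0.14) and Gclm (-0.25), which carry out the limiting step of the synthesis, overlapped widely. Gss, the second enzyme of the synthesis, was lower without overlap at 25.3 ± 4.72 TPM in HFD and 18.5 ± 2.36 TPM in NAC_HFD (n = 4 each, log2 difference -0.43), but the groups overlapped after median-of-ratios scaling. Chac1, which breaks down glutathione inside the cell, was the only higher member without overlap. It stood at 1.95, 1.22, 1.35 and 1.34 TPM in HFD and at 2.41, 2.81, 3.78 and 4.82 TPM in NAC_HFD (log2 difference 0.83, SE 0.21, adjusted p = 0.0929). All NFD libraries lay at 1.45 TPM or below. Genes of cysteine and methionine metabolism had a median of -0.08, which became 0.02 after median-of-ratios scaling. Within them Csad, which turns a cysteine oxidation product towards taurine, stood at 102, 163, 85.5 and 57.4 TPM in HFD and at 31.4, 29.2, 38.8 and 48.5 TPM in NAC_HFD (log2 difference -1.37, SE 0.41, adjusted p = 0.154). The untreated libraries were widely spread and the treated ones close together below them. Cdo1, the first enzyme of cysteine oxidation (0.18), Cth (-0.44) and Cbs (-0.01), the enzymes that make cysteine from homocysteine, and the cystine carrier gene Slc7a11 (-0.14) all overlapped between the groups.

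Genes of the fatty liver programme driven by PPARγ had a median log2 difference of -0.37 over 20 tested genes, with 7 lower at an unadjusted p under 0.05 and 6 lower without overlap (13.9% and 8.66% of all tested genes). Mogat1, an acyltransferase of triglyceride synthesis, was among the 10 lower genes of the gap rule given below. Cidec, which enlarges lipid droplets, stood at 13.6, 11.3, 5.69 and 11.7 TPM in HFD and at 3.0, 1.41, 0.44 and 2.76 TPM in NAC_HFD. Its groups were apart, but NFD libraries spread from 1.33 to 15.3 TPM, and the log2 difference of -2.05 had an SE of 0.60 (adjusted p = 0.149). The fatty acid transporter gene Cd36 overlapped by 1 pair of libraries (40.1 to 77.8 TPM against 12.1 to 42.2 TPM, log2 difference -1.46, adjusted p = 0.088). Anxa2 (-0.65), a membrane scaffold, and Fabp2 (-0.68), a fatty acid carrier, were lower without overlap, and the RNA of Pparg itself overlapped (-0.41). Fabp2 is also a marker of gut epithelium, and the summed level of the gut and gallbladder markers, most of it Fabp2, was 120.3 to 147.7 TPM in HFD and 72.18 to 83.06 TPM in NAC_HFD. Of 10 such markers listed, 4 were tested and lay below 0, 6 stayed under 1 TPM in all 8 libraries, and their part in the lipid results was not tested.

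Oxidation genes were lower as well, at a smaller scale. Of 41 genes of fatty acid oxidation and PPARα targets, 39 lay below 0, with a median of -0.28, 16 lower and 1 higher at an unadjusted p under 0.05 (13.9% and 2.51% of all tested genes) and 11 lower without overlap (8.66%). After median-of-ratios scaling the median was -0.18, with 8 lower at that p and 5 without overlap (7.58% and 4.87% of all tested genes), and leaving out HFD 1 or NAC_HFD 2 lowered the count of 16 to 10 or 9. Vnn1, a pantetheinase that follows PPARα activity, stood at 91.1, 72.2, 63.4 and 74.2 TPM in HFD and at 49.8, 27.0, 40.4 and 60.7 TPM in NAC_HFD (log2 difference -0.79, adjusted p = 0.138). The hormone gene Fgf21 was lower on average (3.60 ± 1.10 TPM against 1.44 ± 0.748 TPM, n = 4 each), yet NAC_HFD 1 at 2.28 TPM lay above HFD 4 at 2.05 TPM. Pdk4, which restrains glucose oxidation, was lower without overlap (-0.47), and the gate of mitochondrial fatty acid entry, Cpt1a, overlapped (-0.18). Genes of fatty acid synthesis lay near all tested genes, with a median of -0.10 against -0.08. Of 27 tested, 17 lay below 0 and 10 above, with 1 lower and 0 higher at an unadjusted p under 0.05 (13.9% and 2.51% of all tested genes). Srebf1 (0.56), Scd1 (0.24) and Fasn (0.03) lay above 0, and each ranged widely within both groups.

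Cholesterol synthesis genes were lower in 24 of 25 cases with a median of -0.40, yet in none were the groups apart and only 3 had an unadjusted p under 0.05, a share near the 13.9% of all tested genes. The last count was 0 without HFD 1, HFD 2 or NAC_HFD 2, 1 without NAC_HFD 1 or NAC_HFD 3, 11 without HFD 4 and 15 without NAC_HFD 4. Mvd shows the pattern, at 9.0, 10.3, 7.05 and 5.24 TPM in HFD and at 2.09, 2.43, 3.47 and 8.76 TPM in NAC_HFD. NAC_HFD 4 stood with the untreated libraries. Cyp8b1, which sets the share of cholic acid among bile acids, was 170.5 ± 25.4 TPM in HFD and 97.2 ± 43.0 TPM in NAC_HFD (n = 4 each, log2 difference -0.88, adjusted p = 0.236), and Cyp7a1, the rate-limiting enzyme of bile acid synthesis, differed by -0.11 (SE 0.33). Abcb4, the exporter of phospholipid into bile, ran from 102 to 120.0 TPM in HFD and from 67.2 to 98.0 TPM in NAC_HFD, though its groups overlapped after median-of-ratios scaling. Apom, an apolipoprotein of high density lipoprotein, was higher without overlap (92.5 to 108 TPM against 115 to 127 TPM, log2 difference 0.28, adjusted p = 0.132), and all NFD libraries were higher still at 158 TPM or more.

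**Figure D3:**
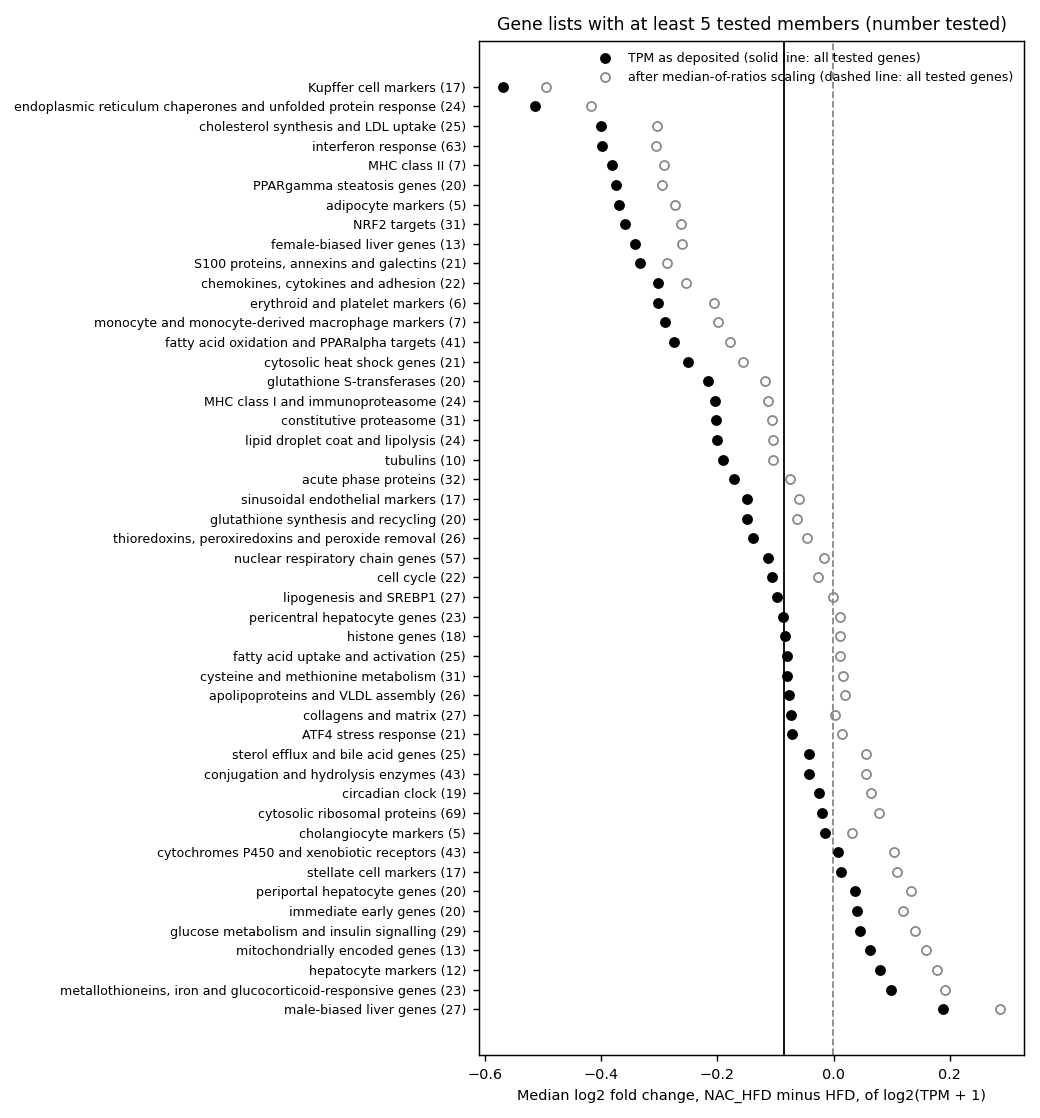
Median log2 difference (NAC_HFD minus HFD) of each gene list with at least 5 tested members, as deposited and after median-of-ratios scaling, with the number of tested genes beside each name. Kupffer cell markers (-0.57), folding genes of the endoplasmic reticulum (-0.51) and cholesterol synthesis (-0.40) lie among the lowest, while the ribosomal protein list lies at -0.02.

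Interferon-induced genes were lower in 61 of 63 cases, with a median log2 difference of -0.40, 27 lower at an unadjusted p under 0.05 and 19 lower without overlap (13.9% and 8.66% of all tested genes). After median-of-ratios scaling the median was -0.31 with 17 and 14 genes (7.58% and 4.87%), and the count of 27 was 15 without HFD 1, the library in which the list was highest. Ifi27l2a, a small mitochondrial membrane protein gene, stood at 7.59, 7.32, 6.25 and 8.87 TPM in HFD and at 4.38, 1.84, 3.29 and 2.79 TPM in NAC_HFD (log2 difference -1.09, SE 0.23, adjusted p = 0.0645). Zbp1, a sensor of nucleic acids, stood at 19.37, 9.70, 8.19 and 9.24 TPM in HFD and at 5.53, 7.50, 4.57 and 4.98 TPM in NAC_HFD (log2 difference -0.87, adjusted p = 0.104). HFD 1 was far above its group, and the other 3 untreated libraries still exceeded every treated one. Psme2, a proteasome activator subunit under interferon control, was lower without overlap (53.9 to 70.1 TPM against 44.1 to 50.2 TPM, log2 difference -0.38). The interferon response element, searched as GAAA, any 2 bases and GAAA on both strands of the same promoter windows, occurred in 3.44% of all windows and in 28 of the 48 list members with a window. Of the 25 tested members with it, 8 were lower without overlap with a median of -0.40, and of the 20 without it 6 were, with a median of -0.39.

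All 21 tested genes for S100 proteins, annexins and galectins lay below 0, with a median of -0.33, 10 lower at an unadjusted p under 0.05 and 7 lower without overlap (13.9% and 8.66% of all tested genes). After median-of-ratios scaling the counts were 9 and 7 (7.58% and 4.87%), with 18 below 0. S100a10 (ENSMUSG00000041959, chr3:93555117-93564645), the partner of annexin A2 at the plasma membrane, stood at 135.8, 128.5, 106.2 and 147.6 TPM in HFD and at 67.72, 60.07, 75.37 and 77.59 TPM in NAC_HFD. The treated libraries lay near NFD (64.6 to 101 TPM) and far below HFD, with a log2 difference of -0.87 (SE 0.15, adjusted p = 0.0515). Lgals3, galectin-3, ran from 1.86 to 3.14 TPM in HFD and from 0.60 to 1.45 TPM in NAC_HFD (log2 difference -0.87, SE 0.16, adjusted p = 0.0515). S100a9, a neutrophil alarmin, ran from 0.66 to 1.80 TPM and from 0.33 to 0.47 TPM (-0.73, adjusted p = 0.0761). Il1b, which encodes interleukin-1β, stood at 3.01, 3.18, 1.27 and 3.03 TPM in HFD and at 1.64, 0.61, 0.45 and 0.55 TPM in NAC_HFD, so that HFD 3 and NAC_HFD 1 crossed (log2 difference -1.0, SE 0.22, adjusted p = 0.071). In the chemokine and cytokine list 11 of 22 tested genes were lower at an unadjusted p under 0.05 and 0 without overlap (13.9% and 8.66% of all tested genes). The first count was 5 without HFD 1, 6 without NAC_HFD 2 or NAC_HFD 3 and 7 without HFD 2, HFD 4 or NAC_HFD 4. Among acute phase genes, Saa3 was lower without overlap (10.7 to 25.4 TPM against 7.08 to 9.66 TPM, log2 difference -0.93, adjusted p = 0.0913), while Saa1 rested on HFD 4 at 1936 TPM against 38.0 to 119.5 TPM in the other HFD libraries and 21.6 to 55.2 TPM in NAC_HFD.

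Kupffer cell markers, which stand for the resident macrophages of the liver, lay in the same direction as these immune genes. Of 17 markers 15 lay below 0 with a median of -0.57 (-0.49 after median-of-ratios scaling), and 10 had an unadjusted p under 0.05 (13.9% of all tested genes), or 5 after that scaling (7.58%), but only Timd4 was lower without overlap, a share no higher than the 8.66% of all tested genes. Their summed level ran from 360.8 to 528.8 TPM in HFD and from 326.1 to 424.0 TPM in NAC_HFD, and none was listed under 1 TPM in all 8 libraries. The count of 10 fell to 2 without HFD 4, to 2 without NAC_HFD 2, to 3 without NAC_HFD 3, to 5 without HFD 2 and to 6 without HFD 1, and was 14 without HFD 3. Clec4f, a marker of resident Kupffer cells, stood at 27.3, 30.4, 17.2 and 36.5 TPM in HFD and at 19.98, 11.3, 13.2 and 18.2 TPM in NAC_HFD. HFD 4 was the highest and HFD 3 fell among the treated libraries (log2 difference -0.78, SE 0.24, adjusted p = 0.149). Of T and NK cell markers 2 of 19 reached the floor for testing and of B and plasma cell markers 0 of 13. All 17 sinusoidal endothelial markers lay below 0 with a median of -0.15, 17 stellate cell markers had a median of 0.01, and 12 hepatocyte markers a median of 0.08. Dendritic cell markers, 4 of 11 tested and all below 0, summed to 75.17 to 90.43 TPM in HFD and 59.18 to 72.88 TPM in NAC_HFD without overlap, most of it from Bst2, which is also on the interferon list. Neutrophil markers, 3 of 12 tested with 2 below 0, had mean log2 levels of 2.97, 2.64, 1.97 and 3.51 in HFD and 1.97 to 2.22 in NAC_HFD, and HFD 3 lay with the treated libraries. The tested neutrophil markers differed in direction. Cxcr2 was higher on average, at 2.25 to 3.40 TPM in HFD and 3.22 to 5.18 TPM in NAC_HFD (log2 difference 0.34, unadjusted p 0.0368 in limma). Of the dendritic cell and neutrophil markers 7 and 8 stayed under 1 TPM in all 8 libraries, and 0 were listed at 0 in all. The part of these immune cell markers in the immune results was not tested.

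Adipocyte markers also differed between the groups. Cfd, the adipsin gene, stood at 4.87, 4.74, 6.63 and 32.69 TPM in HFD and at 1.60, 0.19, 0.11 and 1.75 TPM in NAC_HFD (log2 difference -2.46, SE 0.55, adjusted p = 0.087). HFD 4 was far above the rest of its group. Of the 9 adipocyte markers listed, 5 were tested and lay below 0, and 3 stayed under 1 TPM in all 8 libraries, though 0 were listed at 0 in all 8. The summed level of the list was 1909.6 to 2091.9 TPM in HFD and 1259.9 to 1805.5 TPM in NAC_HFD, most of it from the carbonic anhydrase gene Car3 (1854 to 2061 TPM and 1250 to 1791 TPM). The part of adipose RNA in the lipid results was not tested.

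**Figure D4:**
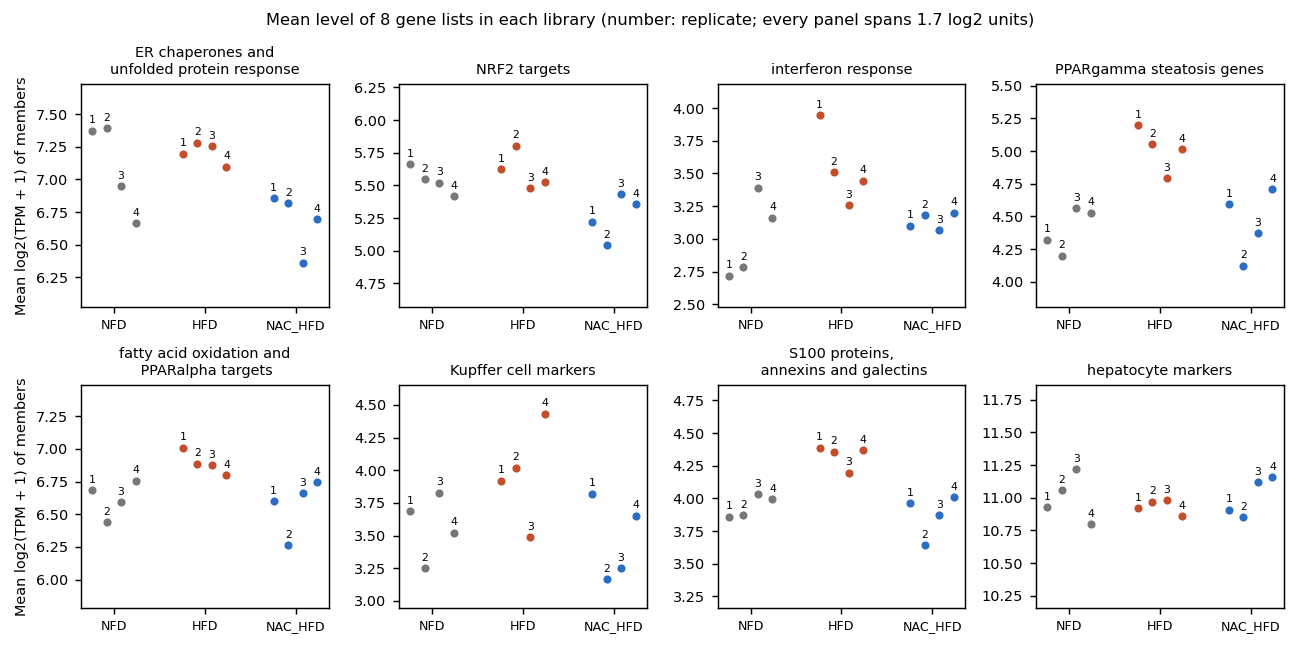
Mean of log2(TPM + 1) over the tested members of 8 gene lists in each of the 12 libraries, with points numbered by replicate and every panel spanning the same range. The folding list lies at 7.10 to 7.28 in HFD and at 6.36 to 6.86 in NAC_HFD without overlap, while for Kupffer cell markers HFD 3 (3.49) lies among the NAC_HFD libraries (3.17 to 3.82).

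Genes that were higher with N-acetylcysteine were fewer than lower ones as deposited. After median-of-ratios scaling 592 were higher and 554 lower without overlap, and 829 higher and 862 lower at an unadjusted p under 0.05. Cytochromes P450 and xenobiotic receptors had a median of 0.01 over 43 genes, with 7 higher and 5 lower at an unadjusted p under 0.05 (2.51% and 13.9% of all tested genes). After median-of-ratios scaling 9 were higher and 2 lower at that p (7.29% and 7.58% of all tested genes). With single libraries left out the counts as deposited ran from 4 to 7 and from 2 to 6. Cyp2e1 (ENSMUSG00000025479, chr7:140763819-140774990), an ethanol- and fatty acid-oxidising P450 of pericentral hepatocytes, stood at 7956, 6558, 7490 and 7560 TPM in HFD and at 8938, 9239, 9063 and 10053 TPM in NAC_HFD. All treated libraries exceeded all untreated and all NFD libraries (log2 difference 0.34, SE 0.10, adjusted p = 0.149). The list of pericentral genes had a median of -0.09 over 23 genes, with 15 below 0. At an unadjusted p under 0.05, 3 of the list were higher and 7 lower (2.51% and 13.9% of all tested genes). Without overlap 2 were higher and 4 lower (1.56% and 8.66%). After median-of-ratios scaling the median was 0.01, with 3 higher and 5 lower at that p (7.29% and 7.58%). Cyp4f14 (0.31) and the carboxylesterase gene Ces2a (0.52, adjusted p = 0.0834) were higher without overlap. Against them Nr1i3 (ENSMUSG00000005677, chr1:171213934-171218845), which encodes the xenobiotic receptor CAR, stood at 215, 234, 226 and 178 TPM in HFD and at 121, 84.1, 164 and 106 TPM in NAC_HFD. The treated libraries lay below every untreated one (log2 difference -0.87, SE 0.17, adjusted p = 0.0522). The aldehyde dehydrogenase gene Aldh3a2 (-0.64, adjusted p = 0.083) and the epoxide hydrolase gene Ephx1 (-0.59, adjusted p = 0.111) were lower without overlap.

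Periportal hepatocyte genes had a median of 0.04 over 20 genes, 4 of them higher at an unadjusted p under 0.05 and 0 lower (2.51% and 13.9% of all tested genes, or 7.29% and 7.58% after median-of-ratios scaling, where the counts were also 4 and 0). The count of 4 ran from 2 to 4 when single libraries were left out. Pigr, the carrier of immunoglobulin A into bile, stood at 635, 547, 584 and 561 TPM in HFD and at 679, 787, 786 and 819 TPM in NAC_HFD, above all NFD libraries as well (log2 difference 0.40, SE 0.10, adjusted p = 0.0902). The urea cycle gene Ass1 was higher without overlap (1041 to 1221 TPM against 1278 to 1954 TPM, log2 difference 0.43), and so was Cps1, the entry enzyme of that cycle (1051 to 1184 TPM against 1450 to 1851 TPM, log2 difference 0.57, adjusted p = 0.261). Igfbp2, an insulin-repressed binding protein of insulin-like growth factors, stood at 125, 128, 184 and 90.6 TPM in HFD and at 249.8, 223, 194 and 199 TPM in NAC_HFD. HFD 3 came close to the treated range without reaching it, and NFD was mostly higher at 190.4 to 474 TPM (log2 difference 0.75, SE 0.26, adjusted p = 0.187). Of 27 male-biased liver genes 22 lay above 0 with a median of 0.19, and 1 was higher without overlap (1.56% of all tested genes). At an unadjusted p under 0.05, 3 were higher and 1 lower (2.51% and 13.9%). After median-of-ratios scaling 6 were higher and 0 lower at that p (7.29% and 7.58%), and 1 was higher without overlap (5.2%). With single libraries left out the count of 3 ran from 2 to 5. Hsd3b5, a steroid enzyme of male liver, stood at 32.8, 44.2, 141 and 59.1 TPM in HFD and at 161, 157, 111 and 126 TPM in NAC_HFD (log2 difference 1.20, adjusted p = 0.171). HFD 3 lay among the treated libraries. Without it the adjusted p was 0.0323 in limma, but leaving out the untreated library highest for this gene widens the gap by itself, so that value is no support. The male-biased list was split within both groups, as given under other observations.

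The genes with the widest gap were taken from the 100 smallest p values with groups that did not overlap, leaving out predicted genes, as the 10 lowest log2 differences and those that were higher, and 17 are described here. All 17 had an adjusted p between 0.0515 and 0.0645. Lgals1 (ENSMUSG00000068220, chr15:78926725-78930465), galectin-1, had the lowest log2 difference at -1.89 (SE 0.36). Acnat2, an acyltransferase that conjugates fatty acids to amino acids, stood at 79.1, 94.2, 52.2 and 69.6 TPM in HFD and at 21.9, 14.8, 45.2 and 30.2 TPM in NAC_HFD, with NAC_HFD 3 close to HFD 3 (log2 difference -1.45, SE 0.28). It has a close paralog. Gas6, the ligand of the TAM receptors that clear dying cells, stood at 31.9, 30.9, 19.5 and 20.02 TPM in HFD and at 14.3, 9.87, 10.1 and 16.3 TPM in NAC_HFD (log2 difference -0.96, SE 0.18). Its untreated libraries fell into a high and a low pair, both above the treated ones. Efna1, a membrane ligand of Eph receptors, ran from 16.9 to 22.7 TPM in HFD and from 6.64 to 13.1 TPM in NAC_HFD (-0.98), below all NFD libraries at 15.6 TPM or more. Rab30, a Golgi GTPase, ran from 10.9 to 17.9 TPM and from 5.85 to 8.46 TPM (-0.92). The histone gene Hist1h3c (-1.06) lay between 0.40 and 1.04 TPM in NAC_HFD and belongs to a family of near-identical copies. The remaining 4 were Syvn1 (-1.25), Mogat1 (-1.11), Ifi27l2a (-1.09) and Nr1i3 (-0.87).

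Among the higher genes, Gpcpd1 (ENSMUSG00000027346, chr2:132529082-132578248), which splits glycerophosphocholine, stood at 31.6, 24.2, 33.6 and 43.5 TPM in HFD and at 59.4, 56.5, 73.0 and 59.2 TPM in NAC_HFD (log2 difference 0.90, SE 0.16). NFD was the lowest of the groups for this gene, at 17.4 to 25.1 TPM. The vasopressin receptor gene Avpr1a ran from 3.10 to 4.79 TPM in HFD and from 6.96 to 7.74 TPM in NAC_HFD (0.83, SE 0.15), and the purine receptor gene P2ry1 from 4.95 to 7.96 TPM and from 9.67 to 12.3 TPM (0.78, SE 0.16). Csrnp1 (0.76), Pih1d1 (0.50), Lurap1l (0.47) and the steroid enzyme gene Hsd3b3 (0.44) were also higher. Hsd3b3 stood at 165 to 191 TPM in HFD, 232 to 278 TPM in NAC_HFD and 153 to 168 TPM in NFD. It has close paralogs.

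**Figure D5:**
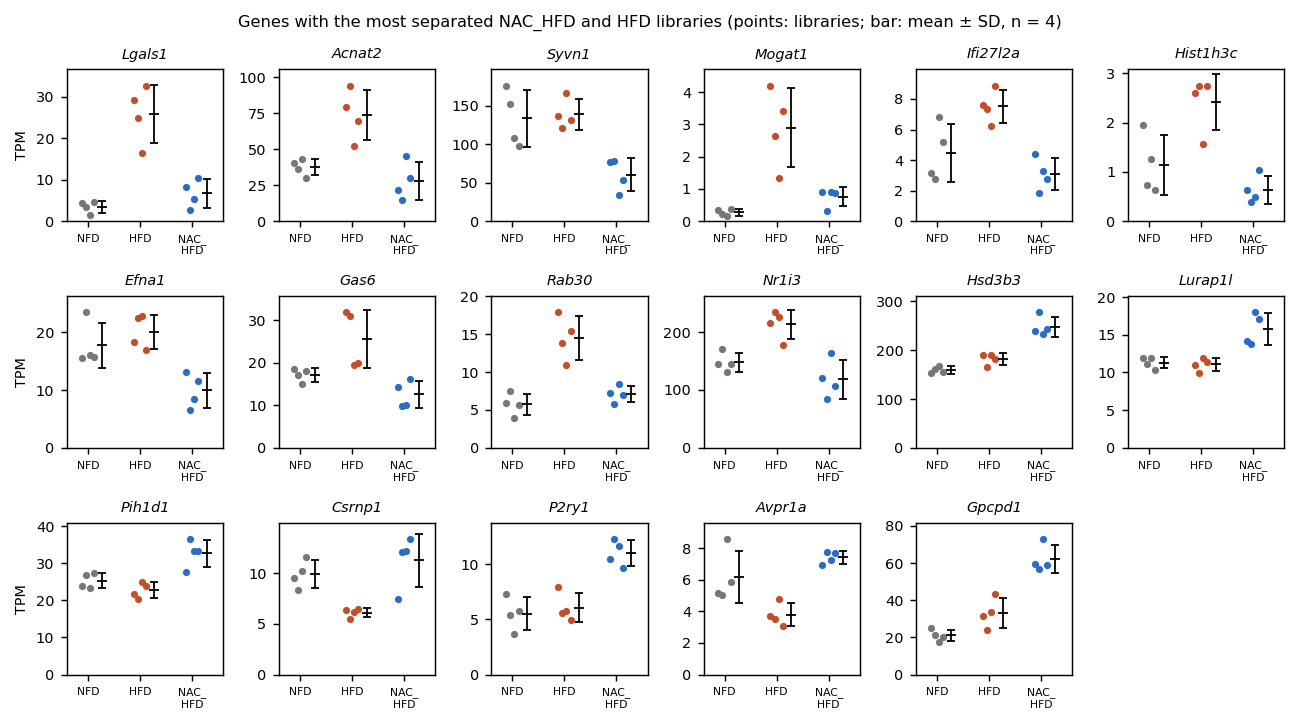
TPM of 17 genes chosen by the gap rule in the NFD, HFD and NAC_HFD libraries, 1 panel a gene, with points for libraries and bars for mean ± SD (n = 4). Lgals1 lies at 16.5 to 32.7 TPM in HFD and 2.66 to 10.5 TPM in NAC_HFD, and Gpcpd1 at 24.2 to 43.5 TPM and 56.5 to 73.0 TPM.

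A comparison of HFD with NFD uses the same HFD libraries, so its values are set beside these without a count of agreement. On the HFD minus NFD scale the list medians were 0.14 for endoplasmic reticulum folding, 0.12 for NRF2 targets, 0.41 for the PPARγ programme, 0.52 for interferon-induced genes and 0.55 for Kupffer cell markers, where NAC_HFD minus HFD gave -0.51, -0.36, -0.37, -0.40 and -0.57. Other lists lay below 0 on both scales. Cytosolic heat shock genes had -0.26 and -0.25, the constitutive proteasome -0.10 and -0.20, and cholesterol synthesis -0.02 and -0.40, in the same order. For folding genes the summed NFD level spanned 3893.4 to 6339.4 TPM, against 5445.6 to 6065.0 TPM in HFD and 3451.5 to 4388.8 TPM in NAC_HFD.

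At transcript level 25205 of 52170 lncRNA transcripts reached 0.1 TPM in at least 4 libraries, and 8 of them passed an adjusted p of 0.05 on log2(TPM + 0.1), 6 lower (0.0238%) and 2 higher (0.00793%). After median-of-ratios scaling or quantile normalization 5 passed, 3 of them lower (0.0119%) and 2 higher. Most of the 8 were low in TPM and listed at 0 in a whole group. A transcript at 0 in 2 of the 3 groups can reach the floor only through all 4 libraries of the remaining group. The filter itself then sets its groups apart, so its p-value is no separate support. This holds for the Hes1 transcript and for the first Proscos transcript below. A transcript of the Hes1 locus (ENSMUST00000161676) was listed at 1.89, 1.29, 1.23 and 0.76 TPM in HFD and at 0 in every NAC_HFD and NFD library (adjusted p = 0.000768 in limma). The Hes1 gene as a whole overlapped, at 3.61 to 5.36 TPM in HFD and 2.46 to 5.21 TPM in NAC_HFD. Gm30262 (XR_872040.2) was listed at 3.45 to 5.86 TPM in HFD and at 0 in all NAC_HFD libraries (adjusted p = 0.0105). At the Proscos locus a transcript (ENSMUST00000178990) was listed at 0 in HFD and NFD and at 0.33 to 0.85 TPM in NAC_HFD (adjusted p = 0.0135). Another (ENSMUST00000163731) was listed at 0.25 to 0.73 TPM in HFD and at 0 in NAC_HFD (adjusted p = 0.0498). A Psme1 transcript (ENSMUST00000173544) was listed at 0.29 to 0.39 TPM in HFD and at 0 in NAC_HFD (adjusted p = 0.0135). A transcript of Ermard (ENSMUST00000227786) rose from 0, 0, 0 and 0.43 TPM to 2.90, 1.83, 2.34 and 2.22 TPM (adjusted p = 0.0151). The BC049987 transcript (ENSMUST00000217474) fell from 5.24 to 9.79 TPM in HFD to 1.67 to 2.68 TPM in NAC_HFD (log2 difference -1.64, SE 0.22, adjusted p = 0.0376). One of Hgfac (ENSMUST00000201994) fell from 6.85 to 10.54 TPM to 1.65 to 4.17 TPM (log2 difference -1.78, SE 0.25, adjusted p = 0.0498), while the gene total overlapped at 126.4 to 158.7 TPM in HFD and 108.1 to 160.4 TPM in NAC_HFD. The Hes1 transcript kept an adjusted p under 0.05 when any single HFD or NAC_HFD library was left out, but not with a floor 5 times higher (adjusted p = 0.11).

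No mRNA transcript passed among 18183 tested of 53634. At an unadjusted p under 0.05, 1599 were lower (8.79%) and 547 higher (3.01%). The smallest adjusted p was 0.0772, for a Lonp2 transcript (ENSMUST00000163987) listed at 4.57, 6.24, 3.69 and 14.37 TPM in HFD and at 0 in all NAC_HFD and NFD libraries. Lonp2, a peroxisomal protease, overlapped as a gene (log2 difference -0.29). The reverse pattern was shown by a Ugdh transcript (ENSMUST00000131263), listed at 0 in HFD and NFD and at 9.03, 4.55, 1.41 and 3.45 TPM in NAC_HFD. A Dnajb6 transcript (ENSMUST00000196528) was likewise listed at 0 in HFD and NFD and at 3.52, 18.62, 3.62 and 2.89 TPM in NAC_HFD. The Lonp2, Ugdh and Dnajb6 transcripts could reach the floor only through all 4 libraries of a single group, so the filter itself sets their groups apart. The Ugdh gene total was nonetheless lower in NAC_HFD, 93.8 ± 22.2 TPM against 62.7 ± 8.34 TPM (n = 4 each).

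The authors' deposited table of mRNA transcripts for this comparison lists 942 transcripts, 452 higher and 490 lower, and 152 of them have an adjusted p under 0.05 in the authors' deposited table. The test behind it is not known from the labels or headers. For 57 of those 152 transcripts 1 group is listed in the authors' deposited table at 0 in all 4 libraries, and in 47 the groups overlap. The 3 largest and 3 smallest fold changes of the authors' deposited table, for transcripts of Kng1, H2-Q7, Qdpr, Syvn1, Cobll1 and Gm16286, all set a group at 0 against values in some libraries of the other. With an adjusted p under 0.05, both group means at 1 TPM or more and no overlap, 45 transcripts remain from the authors' deposited table, 26 higher and 19 lower. Of these, and chosen after their values were seen, the lower ones include 2 transcripts of Syvn1 with log2 fold changes of -1.40 and -1.21 and 1 of Txndc5, another disulphide isomerase, with -1.74 in the authors' deposited table. The higher ones include Gadd45g at 2.80, Foxq1 at 2.53, Socs2 at 2.87 and Cish at 1.85 in the authors' deposited table, the last 2 being feedback inhibitors of cytokine and growth hormone signalling. As whole genes Gadd45g stood at 12.56, 3.79, 4.11 and 8.88 TPM in HFD and at 22.49, 100.8, 19.21 and 45.08 TPM in NAC_HFD in the gene table, with a wide spread within the treated group (log2 difference 2.35, SE 0.62, adjusted p = 0.124). The Cish value is for a single transcript, and Cish as a whole gene overlapped between the groups in the gene table. HFD 1 stood at 15.23 TPM, above NAC_HFD 3 at 12.11 TPM (log2 difference 1.705, SE 0.64, adjusted p = 0.236 in limma). The authors' deposited lncRNA table lists 1075 transcripts, 423 higher and 652 lower, with 125 at an adjusted p under 0.05 and 40 left by the same rule. Its most extreme fold changes, among them those at the loci Gm26608, Son, Zfp687, Edrf1 and Gm30262 in the authors' deposited table, also set a group at 0. Among the 40, again chosen after their values were seen, a transcript at the Nr1i3 locus has a log2 fold change of -1.19 and one at the Cyp2c70 locus of 2.36 in the authors' deposited table.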

How the data were processed

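The 4 HFD and 4 NAC_HFD liver RNA libraries were compared, and the 4 NFD libraries shared the estimate of spread. TRIzol extraction and DNase I treatment are given per the labels' protocols, and fastp, HISAT, RSEM and build GRCm38 per the submitters' processing notes, with versions not stated there. The deposited gene and transcript tables hold TPM for each library. The authors' deposited comparison tables hold the fold change as a ratio, its log2 value, and an unadjusted and an adjusted p-value per transcript, from a test that the labels and headers do not name. TPM keeps no depth, so no count model and no depth-based interval was used.

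Genes at 1 TPM or more in at least 4 of 12 libraries were fitted on log2(TPM + 1). lncRNA transcripts at 0.1 TPM or more and mRNA transcripts at 1 TPM or more, in as many libraries, were fitted on log2(TPM + 0.1). The model held 3 group means (9 residual degrees of freedom) with limma 3.58.1 in R 4.3.3, with trended and robust moderation, Benjamini-Hochberg adjustment over each table and two-sided tests at 0.05. Fits were tested on simulated data. Single values per library were compared by exact two-sided permutation. Tables were handled with pandas 2.3.3, and gene positions and promoter windows came from RefSeq tables of GRCm38.p6, with a position for 95.44% of tested genes. The gene table gives no symbol for 1510 genes.

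The comparison and the 56 lists (40 of functions and 16 of cell types) were chosen with earlier results of these data known. Genes were named by rule: the 10 highest and 10 lowest log2 differences among the 100 smallest p with groups that did not overlap, a panel of 34 redox, lipid and inflammatory genes, in each list the 3 tested members lowest in p, 4 transcripts of each kind at either extreme, and 3 at either extreme of fold change in the authors' deposited tables. Other list members were named after their values were seen. Alternatives were the floor, pseudocount, scaling, library weights, libraries in the fit, a block for replicate number and each library left out. Median-of-ratios scaling of genes reaching 1 TPM and leaving libraries out of the list counts were added after seeing the data. The lncRNA named in the series' title was not analysed here. Results for some genes that these rules select are not reported here.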

Additional observations from a re-analysis of the deposited data

Results flagged for a closer look

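In 280 groups of 4 libraries the highest or lowest library was checked against the others, and 13 stood apart by Dixon's criterion at the 95% level, where chance sets apart about 1 in 20 groups. Among lipid and adipocyte genes these were Cfd in HFD 4 (32.69 TPM), Fitm1 in HFD 2 (25.79 TPM) and Mogat1 in NAC_HFD 2 (0.31 TPM). Among immune genes they were Saa1 in HFD 4 (1935.8 TPM), Zbp1 in HFD 1 (19.37 TPM), Ccl6 in NAC_HFD 1 (4.05 TPM), and Il1b in HFD 3 (1.27 TPM) and in NAC_HFD 1 (1.64 TPM). Among redox and metabolic genes they were Aox1 in HFD 2 (49.94 TPM), Prdx3 in NAC_HFD 2 (38.73 TPM) and Aldh3a2 in HFD 1 (293.4 TPM). The histone gene Hist1h3c stood apart in HFD 3 (1.57 TPM). The share of the gene table taken by mitochondrially encoded genes was 8.906% in HFD 4, the lowest of its group.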

How the results depend on the processing

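Depth is unknown from TPM, 4 libraries a group limit the precision, and the cause of the shifts below was not tested. Genes past the threshold (0 as deposited) numbered 24 with a 10 times larger pseudocount, 157 with library weights and 0 to 64 with single libraries left out. In a fit with a replicate block 3 genes passed (Slc22a5, Lgals1 and Stap1), 1 lncRNA transcript and 0 mRNA transcripts; same-numbered libraries do not deviate together (correlations of -0.11, -0.11, -0.06 and 0.03), so the numbers were not treated as pairs. The 8 lncRNA transcripts became 3 with a higher floor, 5 with median-of-ratios scaling, 5 with quantile normalization, 5 with no floor, 4 with only the 8 libraries and 1 to 37 with single libraries left out (1 without HFD 2 or HFD 3, 4 without HFD 1 or NAC_HFD 4, 37 without NAC_HFD 1). For mRNA transcripts 0 became 1 with a larger pseudocount, 6 with no floor, 1 without robust moderation, 1 with only the 8 libraries and 0 to 4 with single libraries left out. At an unadjusted p under 0.05 the 286 higher genes became 829 with median-of-ratios scaling, 871 with quantile normalization, 454 with no floor and 176 to 383 with single libraries left out. The 1584 lower genes became 862, 762, 1029 with a higher floor and 1036 to 1632. Genes without overlap became 592 and 605 higher (207 to 394 with single libraries left out) and 554 and 488 lower (1097 to 1640).

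The difference in genes reaching 1 TPM (-256.5) was -120.5 at 0.1 TPM (exact permutation p = 0.2286), -253.0 at 5 TPM (p = 0.0571), -203.2 with TPM rescaled within the gene table (p = 0.0857), -204.0 without mitochondrial genes (p = 0.0857) and -136.2 with median-of-ratios scaling (p = 0.0857). It was -300.8 to -216.1 with single libraries left out, where p cannot go below 0.0571. Among single genes 31 values changed sign, all with an adjusted p over 0.8 in limma, 78 passed the threshold under an alternative and 2632 kept both. Pck1 was 0.0087 with TPM rescaled within the gene table, 0.013 with mitochondrial genes left out of it, 0.073 with library weights and 0.089 with median-of-ratios scaling. Cbs was 0.0084, 0.013, 0.035 and 0.089 in the same order and 0.064 with quantile normalization, and Xbp1 was -0.030 with library weights. With single libraries left out, log2 differences ran from -0.19 to 0.14 for Cbs, -0.22 to 0.038 for Cyp7a1, -0.11 to 0.22 for Fasn, -0.76 to 0.026 for G6pc, -0.28 to 0.025 for Gclc, -0.14 to 0.12 for Pck1, -0.091 to 0.65 for Scd1 and -0.13 to 0.33 for Xbp1. Of the list medians under all alternatives, 992 moved by less than the spread between libraries and 27 by more.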

Other observations

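Cell cycle genes included 4 of 22 that were lower with N-acetylcysteine without overlap (8.66% of all tested genes), or 3 after median-of-ratios scaling (4.87%), although the list median was only -0.11 on the log2 scale. Ccnd1, cyclin D1, stood at 11.75, 11.01, 9.67 and 7.96 TPM in HFD and at 7.03, 4.52, 3.0 and 4.59 TPM in NAC_HFD, so that every treated library lay below every untreated one (log2 difference -0.97, SE 0.23, adjusted p = 0.087 in limma). The replication helicase genes Mcm2 (1.15 to 1.34 TPM against 0.39 to 0.81 TPM, adjusted p = 0.0612) and Mcm4 (1.46 to 1.84 TPM against 0.95 to 1.14 TPM, adjusted p = 0.0905) were low in both groups and did not overlap. Of 57 nuclear genes of the respiratory chain 50 lay below 0 with a median of -0.11, or 33 with a median of -0.02 after median-of-ratios scaling. Ndufa2, a subunit of complex I, was lower without overlap (52.56 to 65.69 TPM against 40.56 to 46.08 TPM, adjusted p = 0.0731).

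Sex-biased liver genes were split within both groups, a pattern chosen after their values were seen and given as values only. The mean log2 level of the male-biased list was 6.91 and 7.10 in HFD 1 and 2 and 7.87 and 7.72 in HFD 3 and 4, and in NAC_HFD it was 7.98 and 8.16 in libraries 1 and 2 and 7.16 and 7.29 in libraries 3 and 4. The NFD libraries lay between 7.70 and 7.89. The female-biased list ran the other way, at 3.82, 3.74, 2.90 and 3.07 in HFD 1 to 4 and at 2.67, 2.68, 3.55 and 3.57 in NAC_HFD 1 to 4. Mup7, a major urinary protein gene of male liver with near-identical paralogs, stood at 5272.8, 6196.5, 20482.9 and 21614.3 TPM in HFD and at 24045.1, 27155.9, 10903.2 and 8713.9 TPM in NAC_HFD. Its group means did not differ beyond this spread (log2 difference 0.53, SE 0.52, adjusted p = 0.646).

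Phlda1 and Foxq1 were, like Gadd45g, highest in NAC_HFD 2 and 4. Phlda1, a regulator of cell survival, stood at 56.98, 19.73, 24.47 and 40.31 TPM in HFD and at 76.47, 163.1, 59.97 and 138.0 TPM in NAC_HFD (log2 difference 1.60, SE 0.55, adjusted p = 0.198). Foxq1, a forkhead transcription factor, stood at 4.23, 1.88, 1.61 and 2.65 TPM in HFD and at 5.80, 24.95, 6.07 and 19.50 TPM in NAC_HFD (log2 difference 1.87, SE 0.53, adjusted p = 0.138). For both genes the groups did not overlap, and NFD 2 was the lowest NFD library. These genes were chosen after their values were seen.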
